A study of Mus musculus with 20 samples.

Results

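The genes described here are 10 members of the Wnt/beta-catenin pathway in mouse brown adipose tissue (BAT), chosen by name out of 55471 gene entries per table: Frat1, Frat2, Fzd4, Lrp5, Lrp6, Sfrp1, Sfrp5, Ctnnb1, Tcf7l2 and Axin2. All 10 members passed the filter on low counts, as did 15233 genes in all. The tissue came from mice with an adipose-specific knockout of CEBPB (KO) or from CEBPB wild-type mice (WT), kept at RT or put through 4 h of cold stress. The 4 groups were KO in the cold (KO_cold), WT in the cold (WT_cold), KO at RT (KO_RT) and WT at RT (WT_RT), with 5 libraries each, 20 in all. The sources used here do not name the Cre line that removed CEBPB, the ages or sexes of the mice, or whether a library pooled animals, so p-values measure the spread between libraries.

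Wnt ligands bind a Frizzled receptor together with a coreceptor, Lrp5 or Lrp6. Without that signal, a destruction complex built on axin phosphorylates beta-catenin through the kinase GSK3 and marks it for breakdown; with it, beta-catenin accumulates and works with TCF/LEF factors in the nucleus. In adipose tissue, beta-catenin signalling is known for holding back the conversion of precursors into adipocytes. Frat proteins bind GSK3 and can keep it from acting on beta-catenin, although mice lacking every Frat gene are viable.

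Libraries held 27070755 to 55184989 reads counted in genes. Levels are CPM, read counts scaled to a common library size. Cebpb was at 1.92 ± 0.277 CPM in KO_cold and 143 ± 22.4 CPM in WT_cold, and at 0.564 ± 0.253 CPM in KO_RT and 105 ± 19.9 CPM in WT_RT (SD, n = 5), which matched the genotype labels. All 10 brown adipocyte markers on the list were detected in each group. A pair of WT libraries lay nearest the middle of the first principal component, which held 53.9% of the variance: WT_cold replicate 5 scored 26.6, against 37.6 to 51.8 in the other WT_cold libraries, and WT_RT replicate 4 scored -23.4, against -56.2 to -41.1 in the other WT_RT libraries. Summed skeletal muscle markers moved with temperature, at 43.6 to 50.1 CPM in KO_cold against 81.5 to 724 CPM in KO_RT, and at 48.1 to 90.8 CPM in WT_cold against 54.9 to 1629 CPM in WT_RT. Of 18 such markers, 17 fell in the cold in either genotype, and Myh4 and Ckm were at 0 in KO_cold. Beyond a fit that carries the mean muscle marker level as a covariate, their part in the results was not tested. That level, a mean log2 CPM, ran from -2.43 to -2.25 in KO_cold and from 0.586 to 4.74 in KO_RT. In KO the fit therefore cannot fully separate muscle marker level from cold. Because whole tissue was sequenced, fewer cells of a type and less RNA per cell cannot be told apart.

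Frat1 and Frat2 lie next to each other on chromosome 19 (GRCm38), Frat1 at 41829970 to 41832583 on the plus strand and Frat2 at 41845972 to 41848132 on the minus strand, 13.4 kb apart. Each has 1 annotated transcript in a single exon. Their coding sequences of 822 and 693 bases were identical at 88.2% of 686 aligned bases, and the longest run shared by their transcripts was 104 bases, so reads from such a run can match both genes. Their promoters, from RefSeq (GRCm38.p6), are shown because these neighbours share sequence across the start site yet had unlike values in the cold. The stretches run from 100 bases before the start site to 29 bases after it (the start site being 0), and capitals mark the part of the block that both promoters share.
Frat1 promoter, chr19:41829870-41829999, plus strand: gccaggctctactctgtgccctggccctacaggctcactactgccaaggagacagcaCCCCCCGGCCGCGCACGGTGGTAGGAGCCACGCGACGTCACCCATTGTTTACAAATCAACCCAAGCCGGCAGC
Frat2 promoter, chr19:41848103-41848232, minus strand: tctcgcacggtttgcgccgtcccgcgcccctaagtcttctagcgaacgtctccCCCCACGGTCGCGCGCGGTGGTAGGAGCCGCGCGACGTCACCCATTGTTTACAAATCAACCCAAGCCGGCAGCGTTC
Tcf7l2 promoter, chr19:55741710-55741839, plus strand, with the motif CGTCA in capitals: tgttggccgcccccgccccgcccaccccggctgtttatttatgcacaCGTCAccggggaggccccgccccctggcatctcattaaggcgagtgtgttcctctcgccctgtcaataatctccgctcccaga

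The Frat block covered 93 aligned positions in the windows of 300 bases, of which 89 were identical (95.7%), from -43 to 49 in Frat1 and from -47 to 45 in Frat2. Within it, both promoters held CGTCA, the reverse complement of the cAMP response motif TGACG, at -8 in Frat1 and -12 in Frat2. Both also held the forkhead motif TGTTTAC, at 2 in Frat1 and -2 in Frat2, a motif added after these promoters had been read. TGACG was searched on both strands and stood in 20.8% of all 32851 promoter windows, and TGTTTAC in 3.65%. Neither Frat window held the C/EBP motif TTGCNNAA (10.8% of windows), the TCF/LEF motif CTTTGAT (3.73%), the E-box CACGTG (7.15%) or the PPAR direct repeat (0.0396%). Of the other members with a window, Tcf7l2 held CGTCA at -53 and Sfrp5 held TGACG at -91, a second start of Ctnnb1 held CGTCA at -67 and 0, and Axin2 and Fzd4 held none of the 6 motifs. Windows were found for 7 of the 10 members; Lrp5, Lrp6 and Sfrp1 are named only.

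The largest log2 change with cold among the members was that of Frat1, which encodes a GSK3-binding protein. In KO mice Frat1 was at 0.597, 0.392, 0.669, 0.526 and 0.741 CPM in the cold, against 5.23, 7.57, 4.91, 6.04 and 4.93 CPM at RT. In WT mice it was at 0.547, 0.626, 0.794, 0.765 and 1.45 CPM in the cold, against 6.004, 7.55, 7.74, 4.49 and 8.97 CPM at RT. The cold and RT libraries did not overlap in either genotype, and the RT library nearest the cold ones was WT_RT replicate 4, as the cold library nearest the RT ones was WT_cold replicate 5, the same pair that lay nearest the middle of the first principal component. Frat1 fell by 3.28 ± 0.251 on the log2 scale in KO (9.69-fold lower in the cold; adjusted p = 7.70e-10) and by 3.05 ± 0.234 in WT (8.30-fold lower; adjusted p = 9.63e-10; errors are SE, edgeR quasi-likelihood test). Among 15233 genes ordered by log2 change from the most negative up, it held place 81 in KO and 86 in WT. Its counts were 10 to 61 reads per library in the cold and 144 to 355 at RT, so the cold values carry the larger counting error. With mean muscle marker level as a covariate the changes were -3.25 in KO and -3.03 in WT, and without that pair of WT libraries the change in WT was -3.45.

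CEBPB genotype gave no call for Frat1. It averaged 0.585 ± 0.134 CPM in KO_cold and 0.837 ± 0.360 CPM in WT_cold (SD, n = 5; log2 difference -0.50 ± 0.272 SE, adjusted p = 0.327), and 5.74 ± 1.12 CPM in KO_RT and 6.95 ± 1.73 CPM in WT_RT (-0.28 ± 0.204, adjusted p = 0.621). Without WT_cold replicate 5 the difference in the cold was -0.19 (adjusted p = 0.770). Its cold change differed by -0.22 ± 0.338 between KO and WT (adjusted p = 0.894).

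**Figure D1:**
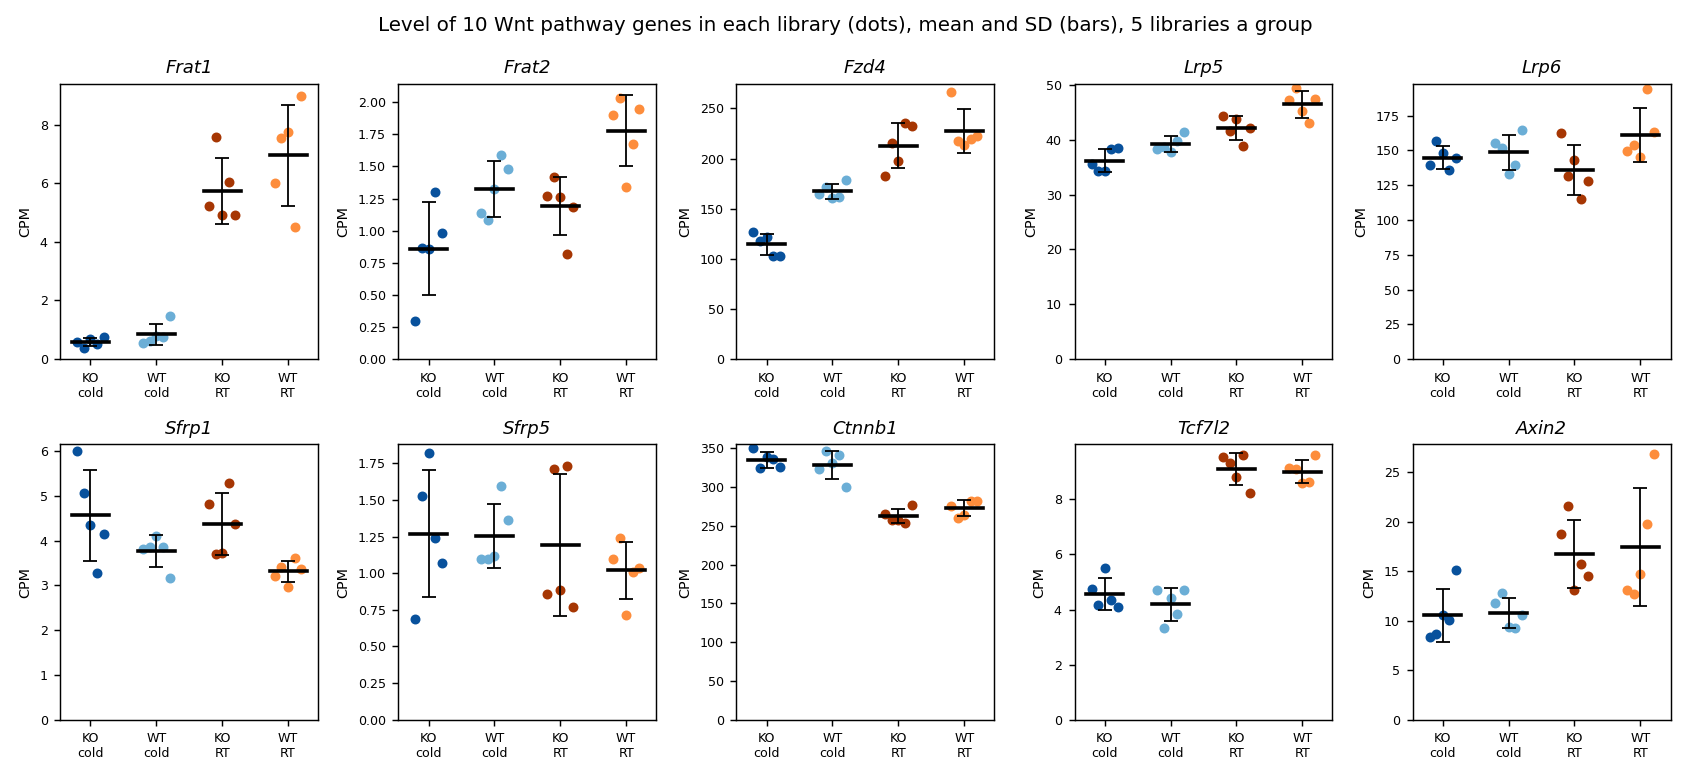
CPM of each of the 10 genes (vertical axes from 0) in the 5 libraries of each group (dots), with the mean and SD as black bars. Frat1 sits between 0.392 and 1.45 CPM in the cold libraries and between 4.49 and 8.97 CPM in the RT libraries, and Fzd4 is lowest in KO_cold, at 103 to 126.3 CPM.

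Frat2, the neighbouring paralog, was at 0.298, 0.863, 0.855, 1.30 and 0.978 CPM in KO_cold, against 1.27, 1.42, 1.26, 0.819 and 1.19 CPM in KO_RT. It was at 1.14, 1.08, 1.32, 1.59 and 1.48 CPM in WT_cold, against 1.90, 2.03, 1.34, 1.68 and 1.94 CPM in WT_RT. Cold and RT libraries overlapped in both genotypes. The log2 differences with cold, -0.48 ± 0.251 in KO (adjusted p = 0.109) and -0.44 ± 0.231 in WT (adjusted p = 0.114), did not pass the test. With 1 library left out, the difference in KO ran from -0.65 without KO_cold replicate 4, where it passed (adjusted p = 0.0364), to -0.22 without KO_cold replicate 1 (adjusted p = 0.357). KO and WT differed by -0.62 ± 0.247 in the cold (adjusted p = 0.151) and -0.58 ± 0.235 at RT (adjusted p = 0.248).

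The difference between the Frat genes in the cold was tested directly, as the share of Frat1 in the counts of both within each library. The share was 66.7, 31.3, 43.9, 28.8 and 43.1% in KO_cold, against 80.5, 84.2, 79.6, 88.1 and 80.6% in KO_RT. It was 32.5, 36.7, 37.5, 32.5 and 49.6% in WT_cold, against 75.9, 78.8, 85.2, 72.8 and 82.2% in WT_RT. Every cold library lay below every RT library of its genotype. The mean share fell by 39.8 percentage points in the cold in KO, and in WT it fell by 41.2, each with p = 0.00794 in a two-sided exact permutation test, the smallest p that 5 against 5 allows, and 0.0159 after Benjamini-Hochberg adjustment over 4 comparisons. Between genotypes, the share averaged 42.7 ± 15% in KO_cold and 37.7 ± 7.02% in WT_cold (exact p = 0.571, adjusted 0.571), and 82.6 ± 3.55% in KO_RT and 79.0 ± 4.92% in WT_RT (exact p = 0.222, adjusted 0.296; SD, n = 5). The first of these differences, 5.01 points, rested on KO_cold replicate 1 and was -0.972 without it. Per kilobase of exon, the ratio of Frat1 to Frat2 was 0.727 ± 0.537 in KO_cold against 4.11 ± 1.20 in KO_RT, and 0.517 ± 0.172 in WT_cold against 3.29 ± 1.02 in WT_RT.

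**Figure D2:**
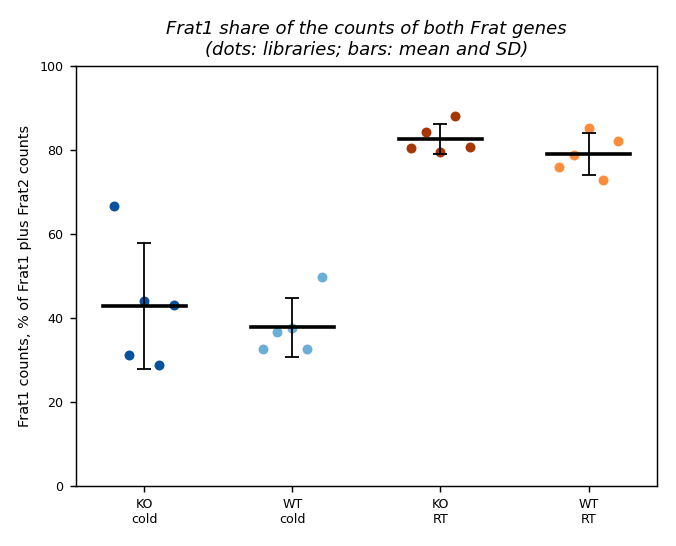
Frat1 counts as a percentage of Frat1 plus Frat2 counts (vertical axis, 0 to 100%) in the 5 libraries of each group (dots), with mean and SD as black bars. The cold libraries lie between 28.8 and 66.7% and the RT libraries between 72.8 and 88.1%.

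The genes around the Frat pair were read for comparison. Of the 3 nearest tested genes on either side, Lcor, Mir8091, Rrp12 and Pgam1 rose in the cold in both genotypes. Lcor lay 268 kb and Mir8091 241 kb before Frat1, and Pgam1 63.8 kb beyond Frat2. Over all tested genes, 27.5% were called higher and 31.7% lower in KO, and 26.2% higher and 30.2% lower in WT. Rrp12, a ribosome assembly factor 14.7 kb beyond Frat2, rose by 1.46 ± 0.0985 on the log2 scale in KO and 1.31 ± 0.0977 in WT, and Pgam1, a glycolytic enzyme, rose by 0.38 in KO and 0.44 in WT. Exosc1, a subunit of the RNA exosome, rose by 0.19 in KO (adjusted p = 0.0398) and was at -0.06 in WT (adjusted p = 0.538). Arhgap19, 27.9 kb before Frat1, was at -0.09 in KO (adjusted p = 0.551) and fell by 0.67 in WT (adjusted p = 0.000108), the only fall called among the 6.

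The 5 genes whose pattern over the 20 libraries lay closest to that of Frat1 were Trarg1, Hcar1, Npffr1, Stat5a and B3galt2. Likeness was the root mean square difference of gene-centred log2 CPM among 11346 genes, with a median of 1.60; it was 0.336 for Trarg1, a regulator of the insulin-responsive glucose transporter GLUT4, 0.375 for the lactate receptor gene Hcar1, 0.381 for Npffr1, 0.387 for Stat5a and 0.408 for B3galt2. Their cold changes were -3.24, -3.40, -3.28, -2.98 and -2.86 in KO and -2.86, -3.37, -3.23, -2.23 and -2.58 in WT, in the same order. Of the members, Tcf7l2 was closest, at 1.09 and place 539, and Frat2 stood at 1.40 and place 2479.

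Among the receptors, Fzd4, the Frizzled that also serves the ligand Norrin in blood vessels, was at 126.3, 118, 122, 103 and 103 CPM in KO_cold, against 183, 216, 197, 236 and 232 CPM in KO_RT. In WT it was at 165, 171, 160, 162 and 179 CPM in the cold, against 267, 218, 213, 220 and 222 CPM at RT. Every cold library lay below every RT library of its genotype, and every KO_cold library lay below every WT_cold library. Fzd4 fell by 0.90 ± 0.079 in KO (a change of -46.3%; adjusted p = 4.91e-09) and by 0.45 ± 0.078 in WT (-26.5%; adjusted p = 4.78e-05). In the cold it was lower in KO than in WT (-31.7%; log2 difference -0.55 ± 0.078, adjusted p = 7.17e-05), while at RT the difference was -0.10 ± 0.078 (adjusted p = 0.654). The cold changes of KO and WT differed by -0.45 ± 0.110, which did not pass across all genes (adjusted p = 0.0630).

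That difference in the cold response of Fzd4 passed with DESeq2 (adjusted p = 0.0107), with no filter on low counts (0.0245), and in 3 of 20 fits with 1 library left out: without KO_cold replicate 1 (0.0470), KO_RT replicate 1 (0.0322) or WT_RT replicate 1 (0.0254). Endothelial markers, whose cells are known to express Fzd4, summed to 1146 to 1316 CPM in KO_cold and 1050 to 1271 CPM in WT_cold, and none of 12 was called between them. At RT they summed to 800 to 1037 CPM in KO_RT and 926 to 1194 CPM in WT_RT, and of the 12 markers 7 rose and 3 fell with cold in KO, and 5 rose and 3 fell in WT. The part of endothelial cells in the Fzd4 values was not tested.

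The coreceptors moved little. Lrp5 was at 35.5, 34.4, 34.2, 38.4 and 38.5 CPM in KO_cold, against 44.4, 41.7, 43.8, 38.9 and 42.1 CPM in KO_RT, and at 38.3, 38.7, 37.8, 39.9 and 41.4 CPM in WT_cold, against 47.3, 49.5, 45.3, 43.0 and 47.5 CPM in WT_RT. Cold and RT libraries were separate in both genotypes, if narrowly in KO. Lrp5 fell by 0.22 ± 0.053 in KO (adjusted p = 0.00123) and by 0.25 ± 0.053 in WT (adjusted p = 0.000419). With mean muscle marker level as a covariate, the change in KO was -0.17 and did not pass (adjusted p = 0.0799). Lrp6 ranged over 136 to 157 CPM in KO_cold, 133 to 165 in WT_cold, 115 to 163 in KO_RT and 145 to 194 in WT_RT, and its cold changes of 0.09 ± 0.087 in KO and -0.11 ± 0.087 in WT did not pass (adjusted p = 0.389 and 0.275).

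The secreted Frizzled-related proteins, which bind Wnt ligands outside the cell, gave no call in any comparison. Sfrp1 ranged over 3.28 to 5.999 CPM in KO_cold, 3.17 to 4.12 in WT_cold, 3.69 to 5.28 in KO_RT and 2.97 to 3.61 in WT_RT. Every KO_RT library lay above every WT_RT library, yet the log2 difference of 0.40 ± 0.138 did not pass (adjusted p = 0.150), and 4.98% of all genes were likewise without overlap between these groups. Fibroblast and adipocyte progenitor markers summed to 907 to 1221 CPM in KO_RT and 734 to 974 CPM in WT_RT, with 2 of 12 higher in KO; their part in the Sfrp1 values was not tested. Sfrp5 ranged over 0.686 to 1.82 CPM in KO_cold, 1.09 to 1.59 in WT_cold, 0.772 to 1.73 in KO_RT and 0.714 to 1.24 in WT_RT, and its cold changes were 0.08 ± 0.261 in KO and 0.29 ± 0.256 in WT (adjusted p = 0.821 and 0.355).

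Ctnnb1, which encodes beta-catenin, was the member that rose. It was at 350, 324, 339, 336 and 326 CPM in KO_cold, against 266, 258, 258, 254 and 277 CPM in KO_RT, and at 323, 346, 331, 341 and 299 CPM in WT_cold, against 275, 260, 264, 282 and 282 CPM in WT_RT. Every cold library lay above every RT library. It rose by 0.35 ± 0.049 in KO (27.7% higher; adjusted p = 2.49e-06) and by 0.27 ± 0.049 in WT (20.5% higher; adjusted p = 7.44e-05). These are transcript levels; the protein, which the destruction complex controls, was not measured.

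Tcf7l2, which encodes a TCF/LEF factor that beta-catenin can work with in the nucleus, moved the other way. It was at 4.75, 4.16, 5.50, 4.36 and 4.09 CPM in KO_cold, against 9.52, 9.31, 8.81, 9.62 and 8.22 CPM in KO_RT, and at 4.71, 3.32, 4.41, 3.86 and 4.70 CPM in WT_cold, against 9.13, 9.09, 8.60, 8.62 and 9.62 CPM in WT_RT. The groups lay far apart, with no cold library above 5.50 CPM and no RT library below 8.22 CPM. Tcf7l2 fell by 0.99 ± 0.101 in KO (adjusted p = 3.43e-08) and by 1.10 ± 0.10 in WT (adjusted p = 8.43e-09).

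Axin2, a scaffold of the destruction complex and a commonly used readout of beta-catenin signalling, was at 8.39, 8.63, 10.6, 10.1 and 15.1 CPM in KO_cold, against 18.8, 21.6, 13.1, 15.7 and 14.5 CPM in KO_RT. It was at 11.8, 12.8, 9.41, 9.27 and 10.6 CPM in WT_cold, against 13.2, 12.8, 14.7, 19.8 and 26.9 CPM in WT_RT. The groups touched in both genotypes, through KO_cold replicate 5 in KO and through WT_cold replicate 2 and WT_RT replicate 2 in WT. Axin2 fell by 0.67 ± 0.207 in KO (adjusted p = 0.00956) and by 0.69 ± 0.204 in WT (adjusted p = 0.00716). Without WT_RT replicate 5, the highest library, the change in WT was -0.46 (adjusted p = 0.0372), and the change in KO ran from -0.98 with the muscle marker term to -0.53 without KO_RT replicate 2, past the threshold in each.

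Over the members, cold gave 1 higher and 5 lower calls of 10 in KO, where 59.2% of all tested genes were called (27.5% higher and 31.7% lower). It gave 1 higher and 5 lower calls in WT, where 56.4% were called (26.2% higher and 30.2% lower). A call in the cold was therefore common, and the 6 of 10 members called are near that background. Cold and RT libraries did not overlap for 5 members in each genotype (Frat1, Fzd4, Lrp5, Ctnnb1 and Tcf7l2), as for 44.9% of all genes in KO and 38.2% in WT. The median log2 change of the members was -0.35 in KO and -0.34 in WT, against -0.05 in either genotype over all tested genes. The members were chosen with earlier results of these data known, so their medians are given as description only.

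Between KO and WT, 1 member was called in the cold, Fzd4, which was also the only member whose groups did not overlap there (7.7% of all genes called, 4.19% lower, and 7.0% without overlap). At RT 0 members were called with edgeR and with DESeq2 (2.7% of all genes with edgeR). The difference of the cold changes gave 0 calls with edgeR (0.742% of all genes) and 1, Fzd4, with DESeq2.

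**Figure D3:**
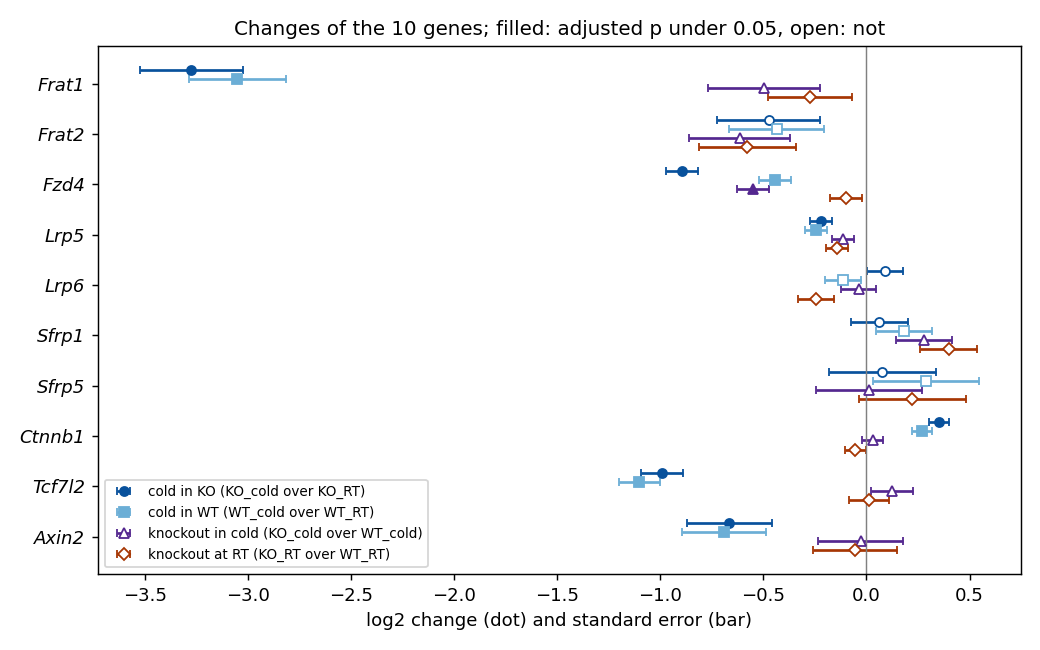
Log2 change (horizontal axis) with its standard error for each of the 10 genes in 4 comparisons, filled where the adjusted p was under 0.05. Frat1 lies at -3.28 in KO and -3.05 in WT with cold, and Fzd4 is the only gene with a filled symbol between genotypes, at -0.55 in the cold.

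Levels between genes were compared as RPKM (CPM divided by the length of the exons in kilobases). Ctnnb1 was highest in every group, at 64.5 ± 2.03 RPKM in KO_cold and 63.2 ± 3.55 in WT_cold, and at 50.5 ± 1.73 in KO_RT and 52.5 ± 1.96 in WT_RT (SD, n = 5). Fzd4 came next, at 17.0 ± 1.60 RPKM in KO_cold, 24.9 ± 1.15 in WT_cold, 31.7 ± 3.37 in KO_RT and 33.9 ± 3.26 in WT_RT, followed by Lrp6, Lrp5 and Axin2. Each of the first 3 lay above the next gene in every library. With reads of both strands counted together, Fzd4 and Ctnnb1 changed places in WT_RT. Frat1 held place 6 at RT, at 2.19 ± 0.429 RPKM in KO_RT and 2.66 ± 0.662 in WT_RT, and place 10 in the cold, at 0.224 ± 0.051 in KO_cold and 0.320 ± 0.138 in WT_cold. At the low end, neighbours overlapped between libraries: in the cold, Sfrp1, Sfrp5, Tcf7l2, Frat2 and Frat1 were not separated from the next in order, and at RT Axin2 was not separated from Frat1.

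To place the members, 102 other genes of the pathway were listed by role, of which 72 passed the filter. In the cold, 22 rose and 22 fell in KO (median log2 change -0.10), and 17 rose and 25 fell in WT (median -0.25), that is 61.1% and 58.3% called, near the backgrounds given above. Of the 19 Wnt ligand genes 14 were too low to test. Of the 5 tested, 1 was called higher and 3 lower in KO, and 0 higher and 3 lower in WT. Those named here are Wnt11 and, chosen after their values were seen, Wnt5a, Wnt9a and Wnt9b. Wnt5a averaged 18.9 CPM in KO_cold against 30.2 CPM in KO_RT (log2 change -0.68). It averaged 16.5 CPM in WT_cold against 29.2 CPM in WT_RT (-0.82), with no overlap in either genotype. Wnt9a changed by -0.66 in KO and -0.62 in WT. With 1 library left out, the Wnt9a call held in 5 of 10 fits in KO and 3 of 10 in WT. Wnt9b, at a low level, rose by 1.67 ± 0.552 in KO (adjusted p = 0.0125), with 0.372 to 0.784 CPM in KO_cold against 0 to 0.391 CPM in KO_RT, and the call was lost with the muscle marker term (0.46, adjusted p = 0.662). In WT its change was 0.45 ± 0.570 (adjusted p = 0.524). Wnt11 was at 1.13, 1.61, 1.64, 1.30 and 1.57 CPM in KO_cold, against 3.52, 3.40, 3.48, 4.07 and 3.38 CPM in KO_RT, and at 0.766, 0.683, 0.823, 0.979 and 1.22 CPM in WT_cold, against 2.64, 3.53, 4.11, 2.45 and 3.43 CPM in WT_RT. It fell by 1.30 ± 0.167 in KO and 1.86 ± 0.170 in WT, with no overlap in either.

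In the destruction complex, 11 of 11 genes were called in both genotypes, 7 higher and 4 lower. Of all tested genes, 59.2% were called in KO and 56.4% in WT. The 2 Wnt secretion genes were also both called in KO. Over the roles the share called ran down to 28.6%, for the secreted and surface inhibitors (2 of 7 in both genotypes). In WT the R-spondins, their receptors and Norrin were at the same share (2 of 7). Whether the roles differ was not tested. Fbxw11, a subunit of the ubiquitin ligase that receives phosphorylated beta-catenin, rose by 1.01 ± 0.068 in KO and 0.77 ± 0.068 in WT, while Btrc, its paralog, fell by 0.56 ± 0.087 in KO and 0.68 ± 0.087 in WT. The GSK3 genes, the binding partners of the Frat proteins, also moved apart: Gsk3a rose by 0.42 ± 0.054 in KO and 0.36 ± 0.054 in WT, and Gsk3b fell by 0.35 ± 0.050 in KO and 0.25 ± 0.050 in WT. Gsk3a averaged 124 ± 4.58 CPM in KO_cold against 92.8 ± 4.28 in KO_RT, and Gsk3b 86.5 ± 3.50 CPM in KO_cold against 110 ± 6.45 in KO_RT (SD, n = 5). Btrc and the GSK3 genes were chosen after their values were seen. Amer1, a membrane-linked scaffold that binds APC, fell by 1.72 ± 0.162 in KO and 1.45 ± 0.156 in WT.

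Among the remaining roles, the surface inhibitor Apcdd1 fell by 1.41 ± 0.231 in KO and 1.85 ± 0.226 in WT. Pygo1, a nuclear partner of beta-catenin through Bcl9, fell by 1.78 ± 0.144 in KO and 1.40 ± 0.146 in WT. Dixdc1, a Dishevelled-related protein, fell by 1.71 ± 0.235 in KO and 0.84 ± 0.234 in WT. Cyclin D1, Ccnd1, a target of beta-catenin and of many other signals, rose by 1.19 ± 0.214 in KO and 1.09 ± 0.212 in WT. Its direction was opposite to that of Axin2. Of the 9 tested genes listed as targets, Ccnd1 was the 1 called higher in each genotype. Among them 2 fell in KO (33.3% called) and 4 in WT (55.6% called). Apcdd1 fell in both, as did Znrf3, chosen after its values were seen, by 0.22 ± 0.078 in KO and 0.34 ± 0.077 in WT. The Znrf3 call in KO held in 3 of 10 fits with 1 library left out. Of all tested genes, 59.2% were called in KO and 56.4% in WT. Ror2, a receptor for Wnt5a, rose by 1.43 ± 0.532 in KO (adjusted p = 0.0274). It was at 0.959 to 3.72 CPM in KO_cold and 0.294 to 1.07 CPM in KO_RT. In WT its change was -0.33 ± 0.480 (adjusted p = 0.581), with 0.358 to 2.61 CPM in WT_cold and 1.34 to 3.66 CPM in WT_RT. At RT, KO differed from WT by -1.57 ± 0.523, which did not pass (adjusted p = 0.139). The Ror2 call in KO was lost with the muscle marker term (adjusted p = 0.310), without KO_cold replicate 3 (0.104), KO_RT replicate 2 (0.0647) or KO_RT replicate 3 (0.0580), with no filter (0.0698) and with the replicate number as a block (0.0652).

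**Figure D4:**
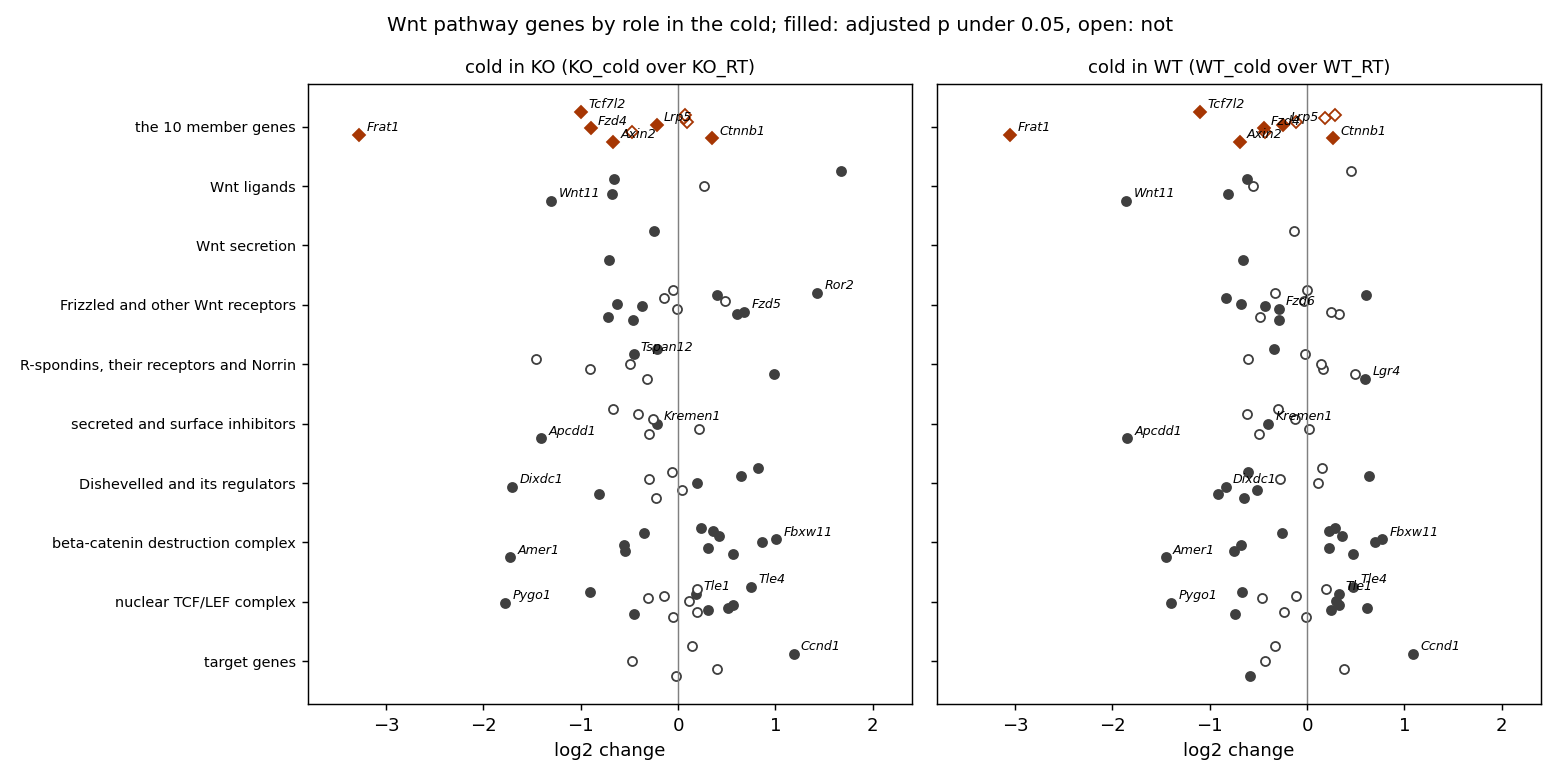
Log2 change with cold (horizontal axis) of the 10 genes (diamonds) and the 72 other tested pathway genes (circles) by role, KO on the left and WT on the right, filled where the adjusted p was under 0.05; a gene with several roles is drawn under the earliest. Frat1 is the leftmost symbol in both panels, at -3.28 and -3.05, and filled symbols lie on both sides of 0.

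Between genotypes, 9 of the 72 other genes were called in the cold, 6 higher and 3 lower in KO, and 3 at RT, 2 higher and 1 lower. That is 12.5% of the list in the cold, against 7.7% of all tested genes, and 4.17% at RT, against 2.7%. Pygo1 was higher in KO under both conditions. It was at 8.83, 6.98, 7.66, 7.89 and 6.55 CPM in KO_cold, against 5.43, 4.93, 3.91, 3.70 and 3.79 CPM in WT_cold, and at 22.6, 32.1, 22.7, 26.5 and 26.1 CPM in KO_RT, against 13.5, 13.4, 12.4, 10.4 and 7.80 CPM in WT_RT. The groups did not overlap, with log2 differences of 0.79 ± 0.149 in the cold (adjusted p = 0.00136) and 1.17 ± 0.139 at RT (adjusted p = 2.18e-05).

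Lgr4, a receptor for R-spondins that strengthens Wnt signalling, was at 13.7, 17.2, 20.5, 16.5 and 14.0 CPM in KO_cold, against 32.2, 29.3, 50.3, 66.3 and 25.9 CPM in WT_cold. The groups were separate, with the spread wider in WT_cold. Lgr4 was lower in KO in the cold, with a log2 difference of -1.31 ± 0.203 (adjusted p = 0.000324). At RT the difference of -0.40 ± 0.200 did not pass (adjusted p = 0.389), although the groups did not overlap. No KO_RT library was above 22.6 CPM and no WT_RT library was below 23.5 CPM. The RT difference passed in 1 of 8 other settings, the fit of only the groups compared (adjusted p = 0.0113). It passed in 0 of 10 fits with 1 library left out. With cold, Lgr4 rose by 0.60 ± 0.198 in WT (adjusted p = 0.0152) and was at -0.32 ± 0.203 in KO (adjusted p = 0.194). The difference of the cold changes of Lgr4, -0.91 ± 0.283, did not pass (adjusted p = 0.190), although it passed with DESeq2 (adjusted p = 0.0408). Lgr6, another R-spondin receptor, was chosen after its values were seen. It averaged 279 CPM in KO_cold and 172 CPM in WT_cold, without overlap. This log2 difference of 0.70 ± 0.241 did not pass (adjusted p = 0.0940), but passed with DESeq2 (adjusted p = 0.0442).

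Tspan12, a tetraspanin that works with Fzd4 and Lrp5 in Norrin signalling, was at 154, 141, 129, 121 and 136 CPM in KO_cold, against 167, 170, 165, 155 and 197 CPM in WT_cold. It was at 201, 177, 182, 203 and 171 CPM in KO_RT, against 178, 180, 169, 178 and 159 CPM in WT_RT. The cold groups did not overlap and the RT groups did. Tspan12 was lower in KO in the cold (log2 difference -0.33 ± 0.072, adjusted p = 0.00536), and its cold change was -0.46 ± 0.072 in KO and -0.02 ± 0.072 in WT. The difference of the cold changes, -0.44 ± 0.102, passed (adjusted p = 0.0410), but in only 4 of 20 fits with 1 library left out, where adjusted p ran from 0.0217 to 0.0841. The call was also lost with the replicate number as a block (0.0668), with the muscle marker term (0.0883) and without both intermediate WT libraries (0.0816). Norrin itself, Ndp, had 6 reads over the 20 libraries and was not tested.

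Of the other genes called in the cold, Fzd5 was higher in KO by 0.74 ± 0.143, Wnt11 by 0.70 ± 0.178, the TLE corepressor gene Tle4 by 0.38 ± 0.087, Fbxw11 by 0.31 ± 0.067 and Kremen1, a partner of the Dickkopf inhibitors, by 0.25 ± 0.069. Tle1, another corepressor gene, was lower, at -0.33 ± 0.076. The Wnt11 call was lost in the fit of only the groups compared (adjusted p = 0.0530), and the Kremen1 call in 5 of 10 fits with 1 library left out, those without KO_cold replicate 1 or 3 or WT_cold replicate 3, 4 or 5 (adjusted p up to 0.102). The Kremen1 call was also lost with no filter (0.125), in the fit of only the groups compared (0.0726) and without both intermediate WT libraries (0.0635). At RT, Dixdc1 was at 4.30 to 12.3 CPM in KO_RT and 2.94 to 4.42 CPM in WT_RT, higher in KO by 1.07 ± 0.225, and Fzd6 was at 9.22 to 11.6 CPM in KO_RT and 11.98 to 15.2 CPM in WT_RT, lower in KO at -0.40 ± 0.094. The Fzd6 call was lost in 4 of 10 such fits, those without KO_RT replicate 2 or 3 or WT_RT replicate 4 or 5 (adjusted p up to 0.0644), and without both intermediate WT libraries (0.0517). In the cold, 5 of 12 fibroblast and adipocyte progenitor markers were higher in KO, with sums of 1103 to 1255 CPM in KO_cold and 882 to 1027 CPM in WT_cold; their part in these differences was not tested.

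**Figure D5:**
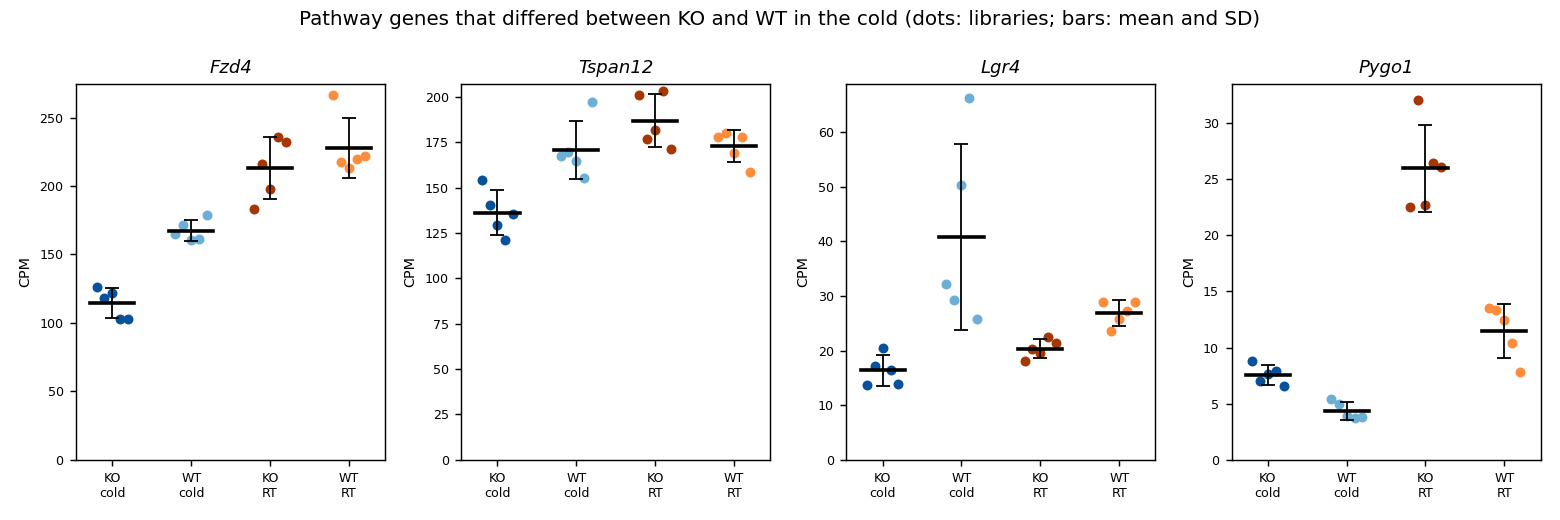
CPM (vertical axes from 0) of Fzd4, Tspan12, Lgr4 and Pygo1 in the 5 libraries of each group (dots), with mean and SD as black bars. In the cold, KO lies below WT for Fzd4, Tspan12 and Lgr4 and above WT for Pygo1, with no overlap.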

How the data were processed

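Messenger RNA libraries of BAT (KAPA stranded kit, per the labels' protocols) were made from 20 samples. Per the submitters' processing notes, reads were handled with Trim Galore 0.6.0 and STAR 2.7.8a on GRCm38.p6 (mm10). The deposited values are raw read counts per gene, without normalization; the reverse-strand counts (column 4) were used, since they held 94.5 to 95.7% of the strand-assigned gene reads. The tables list reads that map to several places apart from the genes, so reads within a run shared by Frat1 and Frat2 may be counted for neither. The 4 summary entries that name no gene were left out of library sizes; multimapping reads made up 18.3 to 21.4% and reads without a gene 3.14 to 4.55%. 0 columns belonged to no sample.

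Counts were filtered (filterByExpr by group), scaled by TMM and fitted in 1 model of 4 groups with edgeR 4.0.16 (R 4.3.3): quasi-likelihood F tests, robust, two-sided, 16 residual degrees of freedom, biological coefficient of variation 15.3%. P-values were Benjamini-Hochberg adjusted over 15233 genes, and a call means an adjusted p under 0.05. The script was tested on simulated counts in which only a small set of genes changed, in WT_cold alone. That setting does not match the share of genes called with cold here. CPM use TMM-scaled library sizes and RPKM the GENCODE M21 exon union. The Frat1 share was compared by exact permutation. Motifs were matched in RefSeq promoter windows.

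The members and gene lists were chosen with earlier results of these data known. Other pathway genes are named where called, at least 2-fold changed in the cold and at 1 CPM or more in a group, or where called between genotypes or in the difference of cold changes. Alternatives were RLE scaling, no filter, DESeq2 1.42.0, only the groups compared, a replicate block, both strands, a muscle marker term, each library left out, and both intermediate WT libraries left out, the last added after the data were seen. Shared replicate numbers name no shared animal in the labels.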

Additional observations from a re-analysis of the deposited data

Results flagged for a closer look

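In 11 of 120 group and gene combinations checked, 1 library stood apart from the other 4 of its group by Dixon's test at the 95% level, where chance gives about 5%. Among the members these were Frat1 in WT_cold replicate 5, at 1.45 CPM against a group median of 0.765, and Fzd4 in WT_RT replicate 1, at 267 CPM against a median of 220 CPM.

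Among the other pathway genes, high values were Fbxw11 in KO_RT replicate 1 (58.0 CPM, median 53.6), Fzd6 in KO_cold replicate 1 (12.5 CPM, median 9.93), Ror2 in KO_cold replicate 3 (3.72 CPM, median 1.42), Wnt11 in KO_RT replicate 4 (4.07 CPM, median 3.48), Gsk3a in WT_RT replicate 5 (114 CPM, median 97.1) and Wnt9b in WT_RT replicate 4 (0.490 CPM, median 0.101). Low values were Ccnd1 in WT_cold replicate 5 (17.4 CPM, median 32.2), Fzd5 in KO_cold replicate 4 (5.04 CPM, median 7.03) and Tle1 in WT_RT replicate 3 (11.9 CPM, median 14.4).

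The change of Tspan12 with cold differed between KO and WT by -0.44 on the log2 scale (edgeR adjusted p = 0.0410). The call was lost in 16 of 20 fits with 1 library left out and in 3 of 7 other settings: the replicate block (0.0668), the muscle marker term (0.0883) and without both intermediate WT libraries (0.0816).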

How the results depend on the processing

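Frat1 was called in the cold under every alternative run, with log2 changes of -3.35 to -3.13 in KO and -3.33 to -2.90 in WT with 1 library left out, and -3.30 to -3.25 in KO and -3.45 to -3.02 in WT otherwise. With the muscle marker term, 29 other pathway genes were called in the cold in KO, against 44. DESeq2 called 629 genes between KO and WT at RT, against 411, and 269 for the difference of cold changes, against 113, which was 74 without both intermediate WT libraries; leave-one-out counts were 267 to 356 at RT. Called members in that difference numbered 1 (Fzd4) with no filter and with DESeq2, and 0 to 1 with 1 library left out. Other pathway genes in it numbered 2 with DESeq2, 0 with the replicate block, the muscle term or without both intermediate WT libraries, and 0 to 1 with 1 library left out. Of the genes called in that difference 57.5% were higher, against 44.4% with no filter. The Frat1 share between KO_cold and WT_cold ran from -0.972 to 8.49 points with 1 library left out. The causes were not tested. Same-numbered libraries had correlations of -0.184 to 0.274, with 7 of 20 pairs over 0.1, and 5 of 20 libraries had their best partner under their own number; with the replicate block, 8958 genes were called with cold in KO, 8491 in WT, 1078 between genotypes in the cold, 383 at RT and 94 in the difference. Counts of 10 to 61 Frat1 reads limit its precision in the cold.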
